A study of Schizosaccharomyces pombe with 9 samples.

Results

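The genes described here lie at both ends of chromosome II of the fission yeast Schizosaccharomyces pombe. They were chosen by identifier: the part before the dot, which names the sequenced clone, was SPBC1348, SPBPB8B6, SPBPB21E7 or SPBPB10D8 at the left end, or SPBPB2B2 or SPBCPT2R1 at the right end. Of the 62 identifiers that the count table lists for these 6 clones, 8 had no count in any library, 15 had fewer than 20 counts summed over the 9 libraries, and 3 were set aside by the rule: tlh2 (SPBCPT2R1.08c), the phosphatase gene SPBPB2B2.06c and the hexose transporter gene ght7 (SPBC1348.14c). This left 36 genes, 23 at the left end and 13 at the right end, out of 6986 identifiers in all. The sums nearest the minimum of 20 were 20 counts for SPBPB21E7.02c inside it and 19 counts for SPBC1348.10c outside it.

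The ends of fission yeast chromosomes are packed by proteins of the telomere and by heterochromatin, which the methyltransferase Clr4 marks on histone H3 and which the protein Swi6 binds. Farther in lies a stretch of condensed chromatin that depends on the proteins Sgo2 and Set2. Genes there are mostly weakly expressed in growing cells, many belong to families with near-identical copies at other chromosome ends, and many code for transporters and enzymes used on particular nutrients, among them the gal1, gal7 and gal10 cluster for galactose, a sugar on which the standard laboratory strain does not grow.

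The libraries formed 3 groups. The aps1∆ strain lacked aps1, which codes for an enzyme that breaks down inositol pyrophosphates, small phosphate-rich signalling molecules. The asp1-D333A strain carried a point mutation in asp1, whose product has a kinase domain that makes these molecules, and the other strain was WT. All were grown at 30 °C to log phase in YES, a rich medium; each group is 1 laboratory strain with 3 replicate experiments, numbered 1 to 3 in both mutants and 4 to 6 in WT, and the labels name no other marker or allele. Polyadenylated RNA was sequenced, and the values are numbers of reads assigned to each identifier.

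Total counts ran from 18244492 to 22999732 per library. Counts of aps1 were 137 to 224 in the aps1∆ libraries, against 2516 to 2634 in WT; reads do not show the asp1 allele. Within strains no pair of libraries agreed within sampling noise, as their chi-square statistics per gene ran from 4.23 to 74.7, and asp1-D333A replicate 3 gave the 2 highest, against replicates 1 and 2. That library is treated below, because it stood apart at these genes. By total counts, the 36 genes took 464 to 550 CPM (counts scaled to library size) in aps1∆ and 696 to 900 CPM in asp1-D333A. In WT they took 503 to 542 CPM, and the 900 belonged to asp1-D333A replicate 3. Much of the excess in asp1-D333A came from aes1 and cmt2, so the sum does not show a rise of all 36. The counts of aes1 were 4611 to 5385 there, against 2286 to 2428 in WT. Those of cmt2 were 1264 to 1559, against 40 to 63 in WT.

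Of the 36 genes, 29 passed a filter on low counts and were tested with edgeR over all 6147 features that passed it; genes with an adjusted p under 0.05 were counted as called. In aps1∆ against WT, 2 genes rose, 7 fell and 20 were not called. That is 31.0% of the 29, where 16.6% of all features tested were called, 6.73% higher and 9.83% lower. In asp1-D333A against WT, 11 rose, 6 fell and 12 were not called, or 58.6%, beside 61.1% of all features (30.3% higher and 30.8% lower), so that the share was near that of the whole table. The median log2 fold change of the 29 was -0.02 in aps1∆ and 0.41 in asp1-D333A, beside -0.01 and 0.01 over all features. Between the mutants, aps1∆ was higher than asp1-D333A in 4 genes and lower in 12, or 55.2% beside 68.8% of all features. Both comparisons with WT use the same WT libraries. By end, 2 genes rose and 4 fell of 18 at the left end in aps1∆, and none rose and 3 fell of 11 at the right end. In asp1-D333A 7 rose and 5 fell at the left end, and 4 rose and 1 fell at the right end.

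Counted by whether the 3 values of a strain lay wholly above or below those of the other, 7 genes were higher and 12 lower in aps1∆ than in WT, where 39.2% of all features did not overlap, 19.5% higher and 19.7% lower. In asp1-D333A 13 were higher and 6 lower than in WT, where 65.7% of all features did not overlap, 32% higher and 33.7% lower. In each comparison with WT, 10 of the 29 genes overlapped. The share without overlap was thus near that of the whole table for asp1-D333A, and above it for aps1∆. Between the mutants 6 were higher and 13 lower in aps1∆, where 70.5% of all features did not overlap, 34.3% higher and 36.2% lower.

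The aps1∆ count moved with single libraries. It was 5 without aps1∆ replicate 3 and 14 without asp1-D333A replicate 3, a library that enters this comparison through the shared estimate of the spread. Calls over all features in these fits are not given beside them, so the shift is not read as particular to these genes. In asp1-D333A the split of 11 higher and 6 lower became 16 and 4 with upper-quartile scaling and 14 and 4 with total counts, and these scalings put the median of all features at 0.18 and 0.14. Of all features called in asp1-D333A, 67.3% and 63.7% were higher with these scalings, beside 49.6% in the fit reported. The TMM scaling is used from here on, with values relative to it. Among the genes called, 1 rose and 2 fell by at least 2-fold in aps1∆, where 27 rose and 188 fell of all 6147 features. In asp1-D333A 6 rose and 3 fell by at least 2-fold, where 386 rose and 162 fell of all features.

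**Figure D1:**
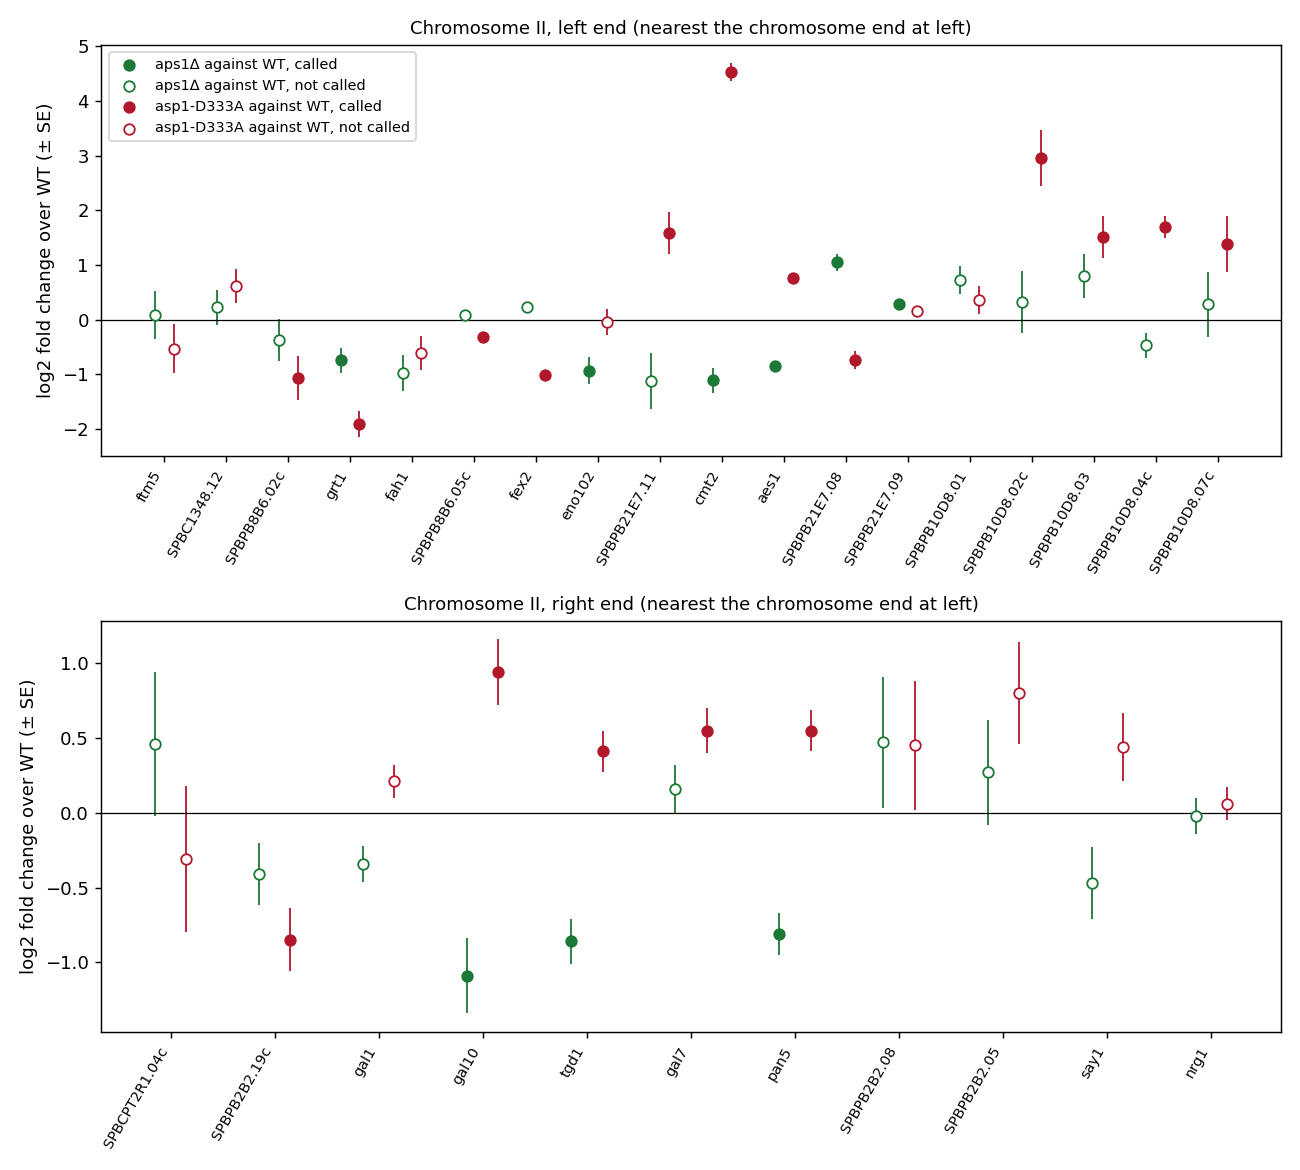
Log2 fold change over WT with its SE for the 29 genes tested, in annotated order from the chromosome end inward, at the left end (top) and the right end (bottom); green is aps1∆, red is asp1-D333A, and filled points passed an adjusted p under 0.05. The largest change is that of cmt2 in asp1-D333A at 4.53, and the axes of both panels differ in range.

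The outermost genes of the left end gave few reads. SPBC1348 held 6 of the 36 genes and 2 of them passed the filter. SPBC1348.01, SPBC1348.07, SPBC1348.08c and the pseudogene SPBC1348.11 summed to between 25 and 40 counts over 9 libraries and were not tested. The membrane protein gene ftm5 (SPBC1348.02) had 20, 19 and 16 counts in aps1∆ and 4, 19 and 23 in asp1-D333A, against 21, 11 and 20 in WT. Its groups overlapped, the low value being that of asp1-D333A replicate 1, and it was called in neither mutant. The innermost of the 6, SPBC1348.12, annotated as a DNA-binding transcription factor, had 5.53, 5.44 and 6.01 CPM in aps1∆ and 4.60, 5.19 and 12.3 CPM in asp1-D333A, against 4.35, 5.05 and 5.05 CPM in WT. Its asp1-D333A replicate 3 was high and the other replicates of that strain lay within or next to the WT range. Its log2 fold change in asp1-D333A was 0.61 (SE 0.31, edgeR adjusted p 0.11), and 0.02 without that replicate. Without replicate 1 or 2, which leaves replicate 3 more weight, it was called higher at 0.86 or 0.81 (edgeR adjusted p 0.019 and 0.042).

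The 5 genes of SPBPB8B6, next inward, all had negative log2 fold changes in asp1-D333A, from -1.91 to -0.31, and 4 of them fell, where 30.8% of all features fell; in aps1∆ 1 of the 5 fell, where 9.83% of all features fell. The transcription factor gene grt1 (SPBPB8B6.04c) was at 5.28, 5.61 and 4.98 CPM in aps1∆ and at 1.37, 2.14 and 3.43 CPM in asp1-D333A, against 9.82, 8.73 and 7.91 CPM in WT. The 3 groups did not overlap. Its log2 fold change was -1.91 (SE 0.24, edgeR adjusted p 1.9e-05) in asp1-D333A and -0.74 (SE 0.23, edgeR adjusted p 0.043) in aps1∆. The call in aps1∆ was lost without any 1 of the 6 libraries compared, at adjusted p of 0.068 to 0.14, and with total counts, at 0.051.

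The gene fex2 (SPBPB8B6.06c), which codes for a channel that exports fluoride from the cell, had 26.5, 25.3 and 27.3 CPM in aps1∆ and 10.7, 10.7 and 11.9 CPM in asp1-D333A, against 23.4, 21.7 and 22.2 CPM in WT. All asp1-D333A values lay below, and all aps1∆ values above, those of WT. It fell in asp1-D333A to 49.5% of the WT level (log2 fold change -1.02, SE 0.09, edgeR adjusted p 1.2e-06) and was not called in aps1∆ (0.23, SE 0.09, edgeR adjusted p 0.098). Its copy fex1 on chromosome I, 99.9% identical over 1037 nucleotides, was at -0.46 (SE 0.12) in asp1-D333A and 0.44 (SE 0.12) in aps1∆, both called, so the share of reads that belongs to each gene is uncertain.

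The asparaginase gene SPBPB8B6.05c, whose product frees ammonium from asparagine, had 60.9, 66.9 and 63.6 CPM in aps1∆ and 48.5, 48.1 and 48.9 CPM in asp1-D333A, against 64.8, 61.1 and 54.8 CPM in WT. Its asp1-D333A values lay below all others, with a log2 fold change of -0.31 (SE 0.08, edgeR adjusted p 0.0045) that was no longer called with upper-quartile (-0.14, edgeR adjusted p 0.13) or total-count scaling (-0.18, edgeR adjusted p 0.08). It has a copy on chromosome I, SPAC977.12, that is 95.3% identical over its whole length. The acetamidase gene fah1 (SPBPB8B6.03) lies wholly within grt1 on the opposite strand. It had 23, 13 and 13 counts in aps1∆ and 20, 23 and 38 in asp1-D333A, against 26, 29 and 43 in WT. All aps1∆ values were below those of WT, while asp1-D333A overlapped WT. It was not called, at -0.98 (SE 0.33, edgeR adjusted p 0.058) in aps1∆ and -0.61 (SE 0.31, edgeR adjusted p 0.10) in asp1-D333A. Without asp1-D333A replicate 3 both were called, at -0.98 (edgeR adjusted p 0.029) and -0.89 (edgeR adjusted p 0.032), and so was aps1∆ without its replicate 1. The urea transporter gene SPBPB8B6.02c had 7 to 18 counts in every library, and its fall in asp1-D333A (-1.06, SE 0.40, edgeR adjusted p 0.032) was lost without WT replicate 5 or 6 or asp1-D333A replicate 1 or 3, with upper-quartile or total-count scaling (edgeR adjusted p 0.062 and 0.056) and with DESeq2 (adjusted p 0.11).

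SPBPB21E7 held the widest changes. The gene cmt2 (SPBPB21E7.04c), annotated as a catechol O-methyltransferase, an enzyme that moves a methyl group onto catechol rings, was at 1.62, 0.944 and 0.975 CPM in aps1∆ and at 57.5, 59.2 and 61.5 CPM in asp1-D333A, against 2.40, 3.22 and 2.08 CPM in WT. No groups overlapped, and the 3 asp1-D333A libraries lay close together, with an SD of 1.99 CPM. It was 23.1-fold higher in asp1-D333A than in WT (log2 fold change 4.53, SE 0.16, edgeR adjusted p 3.1e-10). In aps1∆ it fell by 1.11 on the log2 scale (SE 0.23, edgeR adjusted p 0.0059), and it was lower in aps1∆ than in asp1-D333A by a log2 fold change of -5.63 (SE 0.17).

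Per kilobase of gene length, cmt2 was at 55.8 CPM in asp1-D333A, against 2.41 CPM in WT, which placed it second among the 36 genes in that mutant, after aes1 at 179 CPM. In WT 16 of the 36 had a higher level per kilobase. The genes next to cmt2 on the clone did not share its level. On one side SPBPB21E7.05 had no count in any library. On the other side the uncharacterised gene SPBPB21E7.11 had 4, 2 and 8 counts in aps1∆ and 27, 44 and 49 in asp1-D333A, against 14, 7 and 10 in WT. It rose in asp1-D333A (log2 fold change 1.59, SE 0.38, edgeR adjusted p 0.0027) and was not called in aps1∆ (-1.12, SE 0.51, edgeR adjusted p 0.16).

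The gene aes1 (SPBPB21E7.07), annotated as a member of the phenazine biosynthesis family, was the most abundant per kilobase in WT and in asp1-D333A. It had 66.4, 71.4 and 68.7 CPM in aps1∆ and 210, 222 and 201 CPM in asp1-D333A, against 130, 117 and 126 CPM in WT. The 3 groups were apart, with SDs of 2.47, 10.6 and 6.88 CPM (n = 3 each, same order). It fell in aps1∆ (log2 fold change -0.85, SE 0.07, edgeR adjusted p 1.8e-06) and rose in asp1-D333A (0.76, SE 0.06, edgeR adjusted p 5.3e-07).

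The pseudogene SPBPB21E7.08, the next member inward and on the same strand, had the opposite pattern. It was at 137, 106 and 97.2 CPM in aps1∆ and at 30.8, 27.2 and 40.3 CPM in asp1-D333A, against 49.6, 50.6 and 64.7 CPM in WT. It rose in aps1∆ (log2 fold change 1.05, SE 0.16, edgeR adjusted p 0.0017) and fell in asp1-D333A (-0.74, SE 0.17, edgeR adjusted p 0.0026), with no overlap in either case. In aps1∆ it was the most abundant of the 36 per kilobase, at 109 CPM, ahead of aes1 at 58.4 CPM.

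A further pair of genes on this clone was called in aps1∆ and not in asp1-D333A, which does not show that the mutants differed at them. The enolase gene eno102 (SPBPB21E7.01c), whose product acts in glycolysis, had 3.35, 3.27 and 2.33 CPM in aps1∆ and 4.10, 4.45 and 8.05 CPM in asp1-D333A, against 5.47, 5.51 and 6.14 CPM in WT. In asp1-D333A, replicates 1 and 2 lay below and replicate 3 above all WT values. Its fall in aps1∆ (log2 fold change -0.93, SE 0.25, edgeR adjusted p 0.024) was lost without WT replicate 5 or 6 or aps1∆ replicate 2 or 3, at adjusted p of 0.057 to 0.10, and aps1∆ was below asp1-D333A by -0.89 (SE 0.25, edgeR adjusted p 0.0062). The asparaginase gene SPBPB21E7.09 has a copy on chromosome I, SPAC186.03, 96.3% identical over 1238 nucleotides and with 1 to 10 counts per library. SPBPB21E7.09 had 37.9, 35.5 and 39.9 CPM in aps1∆ and 33.6, 37.2 and 32.3 CPM in asp1-D333A, against 31.1, 30.8 and 30.7 CPM in WT. Its rise in aps1∆ (0.29, SE 0.09, edgeR adjusted p 0.037) was lost without any 1 of the 6 libraries compared and without asp1-D333A replicate 1, at adjusted p of 0.055 to 0.13, and when scaled by upper quartiles (0.067) or by total counts (0.11); the mutants did not differ past the threshold (0.14, SE 0.09, edgeR adjusted p 0.17). SPBPB21E7.02c, of the phosphoglycerate mutase and phosphofructokinase family, had at most 1 count per library in aps1∆ and 8, 1 and 8 in asp1-D333A, against at most 1 in WT, and was not tested.

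**Figure D2:**
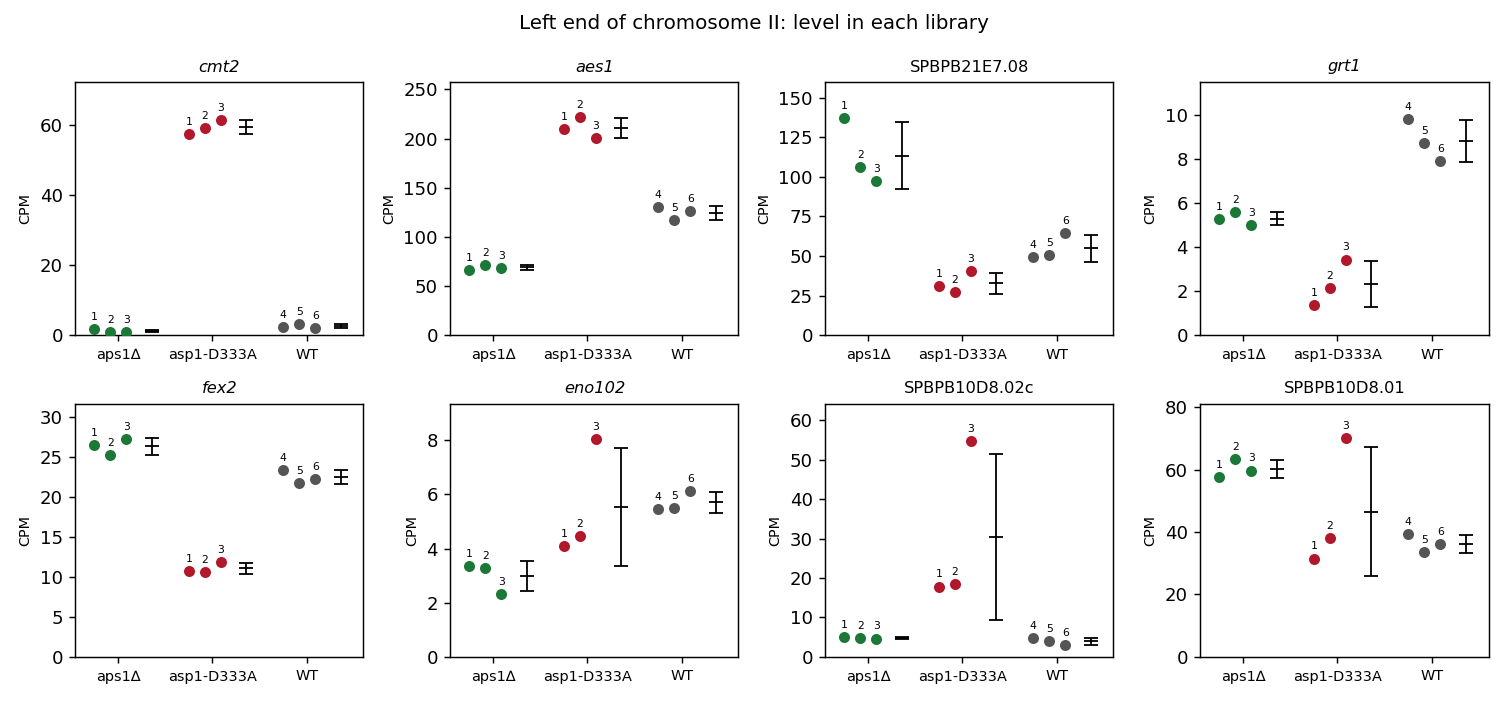
Level in each library, in CPM on axes from 0, of 8 genes of the left end; points carry the replicate number, and the bar beside them is the mean with its SD (n = 3). The 3 asp1-D333A points of cmt2 lie between 57.5 and 61.5 CPM, whereas replicate 3 of that strain is far above its replicates in SPBPB10D8.02c and SPBPB10D8.01.

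On SPBPB10D8, the innermost clone of the left end, 4 of 5 genes rose in asp1-D333A, where 30.3% of all features rose, and none was called in aps1∆, where 16.6% of all features were called. The arylsulfatase gene SPBPB10D8.02c, whose product splits sulfate from aromatic esters, had 5.13, 4.83 and 4.66 CPM in aps1∆ and 17.9, 18.5 and 54.7 CPM in asp1-D333A, against 4.69, 4.08 and 2.97 CPM in WT. All asp1-D333A values were higher than all others, and replicate 3 was 2.95 times the higher of replicates 1 and 2. The log2 fold change in asp1-D333A was 2.96 (SE 0.51, edgeR adjusted p 0.0017), and 2.22 (SE 0.16) without that replicate.

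The pseudogene SPBPB10D8.03 beside it had 1.88, 2.61 and 1.79 CPM in aps1∆ and 2.37, 1.98 and 5.88 CPM in asp1-D333A, against 1.23, 1.33 and 1.04 CPM in WT. Both mutants lay above WT in every library. It rose in asp1-D333A (log2 fold change 1.51, SE 0.38, edgeR adjusted p 0.0039), and by 0.85 without replicate 3; in aps1∆ it was at 0.80 (SE 0.40, edgeR adjusted p 0.20), called without asp1-D333A replicate 3 (edgeR adjusted p 0.032).

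The cysteine transporter gene SPBPB10D8.01 had 57.5, 63.4 and 59.7 CPM in aps1∆ and 31.5, 38 and 70.1 CPM in asp1-D333A, against 39.3, 33.5 and 36.1 CPM in WT. Its 3 aps1∆ values were above every WT value, yet the change was not called (log2 fold change 0.73, SE 0.26, edgeR adjusted p 0.090). The spread that this test used includes the asp1-D333A libraries. Without asp1-D333A replicate 3 the same change of 0.73 had an adjusted p of 1.4e-05, and without asp1-D333A replicate 1 of 0.021, in edgeR. In asp1-D333A the change of this gene was 0.36 with all libraries, -0.06 without replicate 3, and 0.58 and called without replicate 1 (edgeR adjusted p 0.029).

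The transporter genes SPBPB10D8.04c and SPBPB10D8.07c share 1227 identical nucleotides with each other, so that their reads may be exchanged or lost. The more abundant, SPBPB10D8.04c, had 41, 25 and 36 counts in aps1∆ and 189, 228 and 168 in asp1-D333A, against 42, 44 and 57 in WT. It rose in asp1-D333A (log2 fold change 1.70, SE 0.20, edgeR adjusted p 1.1e-05) and was not called in aps1∆ (-0.47, SE 0.23, edgeR adjusted p 0.18). Here asp1-D333A replicate 3 was the lowest of its strain. SPBPB10D8.07c had 5 to 7 counts in aps1∆ and 13 to 19 in asp1-D333A, against 2 to 9 in WT; its rise (1.39, SE 0.51, edgeR adjusted p 0.030) was lost without WT replicate 5 or 6 or asp1-D333A replicate 1, with the 6 libraries of the pair alone and with DESeq2 (adjusted p 0.051 to 0.12), and was 2.30 without WT replicate 4.

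At the right end, the galactose genes of SPBPB2B2 gave reads in each of the 9 libraries. Gal1 phosphorylates galactose, Gal7 exchanges it onto a nucleotide sugar, and Gal10 converts the resulting UDP-galactose to UDP-glucose. Of these genes gal10 had the widest log2 fold changes. It had 4.16, 4.38 and 2.98 CPM in aps1∆ and 12.9, 12.1 and 22.1 CPM in asp1-D333A, against 6.97, 8.37 and 9.26 CPM in WT. The groups were apart, all aps1∆ values being lowest and all asp1-D333A values highest. Its log2 fold change was -1.09 (SE 0.25, edgeR adjusted p 0.0098) in aps1∆ and 0.94 (SE 0.22, edgeR adjusted p 0.0025) in asp1-D333A. Without aps1∆ replicate 3 the fall was -0.94 with an adjusted p of 0.051 in edgeR, and without asp1-D333A replicate 3 the rise was 0.61.

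The 2 other genes of the pathway in the cluster had smaller log2 fold changes. For gal1 (SPBPB2B2.13) the levels were 19.4, 20.2 and 17.8 CPM in aps1∆ and 26.4, 24.9 and 32.5 CPM in asp1-D333A, against 22.0, 26.3 and 24.2 CPM in WT. It was called in neither mutant against WT (log2 fold change -0.34 in aps1∆ and 0.21 in asp1-D333A), but was lower in aps1∆ than in asp1-D333A (-0.55, SE 0.12, edgeR adjusted p 8.9e-04). Without asp1-D333A replicate 3 the value in aps1∆, at the same -0.34, was called (edgeR adjusted p 0.017). For gal7 (SPBPB2B2.10c) the levels were 8.27, 10.6 and 9.69 CPM in aps1∆ and 12.1, 11.3 and 14.1 CPM in asp1-D333A, against 7.31, 7.86 and 10.4 CPM in WT. It rose in asp1-D333A (0.55, SE 0.15, edgeR adjusted p 0.0064) and overlapped WT in aps1∆ (0.16, SE 0.16, edgeR adjusted p 0.52). The difference of gal7 between the mutants (-0.39, edgeR adjusted p 0.033) was lost in 4 of the 6 fits that each left out 1 mutant library.

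The epimerase gene uge1 (SPBC365.14c), which lies elsewhere on the chromosome and serves the same step as gal10 in cells without galactose, stood far above it: in WT gal10 was at 2.33 CPM per kilobase and uge1 at 182 CPM per kilobase. The log2 fold changes of uge1 were 0.17 (SE 0.07, edgeR adjusted p 0.11) in aps1∆ and -0.26 (SE 0.07, edgeR adjusted p 0.0051) in asp1-D333A, with signs opposite to those of gal10.

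The gene tgd1 (SPBPB2B2.11), a nucleotide-sugar dehydratase, lies on the strand opposite gal10 and shares 98.8% of its length with it. It had 3.96, 4.38 and 3.90 CPM in aps1∆ and 9.06, 8.90 and 11.6 CPM in asp1-D333A, against 8.14, 7.04 and 7.13 CPM in WT. As for gal10, aps1∆ was lowest and asp1-D333A highest, without overlap. It fell in aps1∆ (log2 fold change -0.86, SE 0.15, edgeR adjusted p 0.0019) and rose in asp1-D333A (0.41, SE 0.14, edgeR adjusted p 0.022), the rise being lost without WT replicate 5 or 6 or asp1-D333A replicate 3. The counts of tgd1 were 95.1% to 131% of those of gal10 in aps1∆ and 52.4% to 73.5% in asp1-D333A, against 77% to 117% in WT. Summed over 50 antisense features that lie wholly within abundant genes, counts were 0.702% to 1.40% of the genes' summed counts in the 9 libraries. Few reads thus reached the opposite strand there. The strand setting of the counting is not given.

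Inward of the cluster, pan5 (SPBPB2B2.09c), whose product reduces ketopantoate on the way to coenzyme A, followed the order of gal10. It had 33.9, 28.4 and 26.5 CPM in aps1∆ and 69.0, 64.2 and 93.5 CPM in asp1-D333A, against 45.6, 53.3 and 56.5 CPM in WT. It fell in aps1∆ (log2 fold change -0.81, SE 0.14, edgeR adjusted p 0.0024) and rose in asp1-D333A (0.55, SE 0.14, edgeR adjusted p 0.0042), with no overlap between groups, and kept both calls in each fit that left out 1 library. The 3 falls on this clone in aps1∆ were thus those of gal10, tgd1 and pan5.

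Farther inward, none of the 4 members of the clone was called against WT in either mutant. Of all features, 16.6% were called in aps1∆ and 61.1% in asp1-D333A. SPBPB2B2.06c, set aside by the rule, lies among these members and was called in both mutants. It was at 2.66 in aps1∆ and -2.82 in asp1-D333A (edgeR adjusted p 4.5e-04 and 1.3e-04). SPBPB2B2.08, uncharacterised, had 35, 18 and 20 counts in aps1∆ and 13, 25 and 55 in asp1-D333A, against 15, 15 and 23 in WT, and its groups overlapped. For say1 (SPBPB2B2.02), a sterol deacetylase gene, the levels were 5.58, 5.05 and 4.44 CPM in aps1∆ and 7.10, 7.46 and 13.8 CPM in asp1-D333A, against 6.30, 8.06 and 6.55 CPM in WT. All aps1∆ values were below those of WT (log2 fold change -0.47, SE 0.24, edgeR adjusted p 0.20), a change called without asp1-D333A replicate 3 (-0.47, edgeR adjusted p 0.029). In asp1-D333A it was at 0.44 (SE 0.23, edgeR adjusted p 0.11), 0.06 without replicate 3, and called without replicate 1 (0.61) or replicate 2 (0.58). The amidotransferase gene SPBPB2B2.05 had 4.52, 5.72 and 5.04 CPM in aps1∆ and 4.46, 4.90 and 12.5 CPM in asp1-D333A, against 4.30, 4.13 and 4.21 CPM in WT. Its log2 fold change in asp1-D333A was 0.80 (SE 0.34, edgeR adjusted p 0.061), 0.15 without replicate 3, and called without replicate 1 (1.05) or replicate 2 (1.02). It was also called with upper-quartile scaling (0.97), total counts (0.94) and DESeq2 (0.79). The amino acid permease gene nrg1 (SPBPB2B2.01) had 43.5, 46.6 and 44.7 CPM in aps1∆ and 41.0, 57.3 and 44.5 CPM in asp1-D333A, against 41.2, 48.1 and 47.4 CPM in WT. Its groups overlapped, and its log2 fold changes were -0.02 (SE 0.12) in aps1∆ and 0.06 (SE 0.11) in asp1-D333A.

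**Figure D3:**
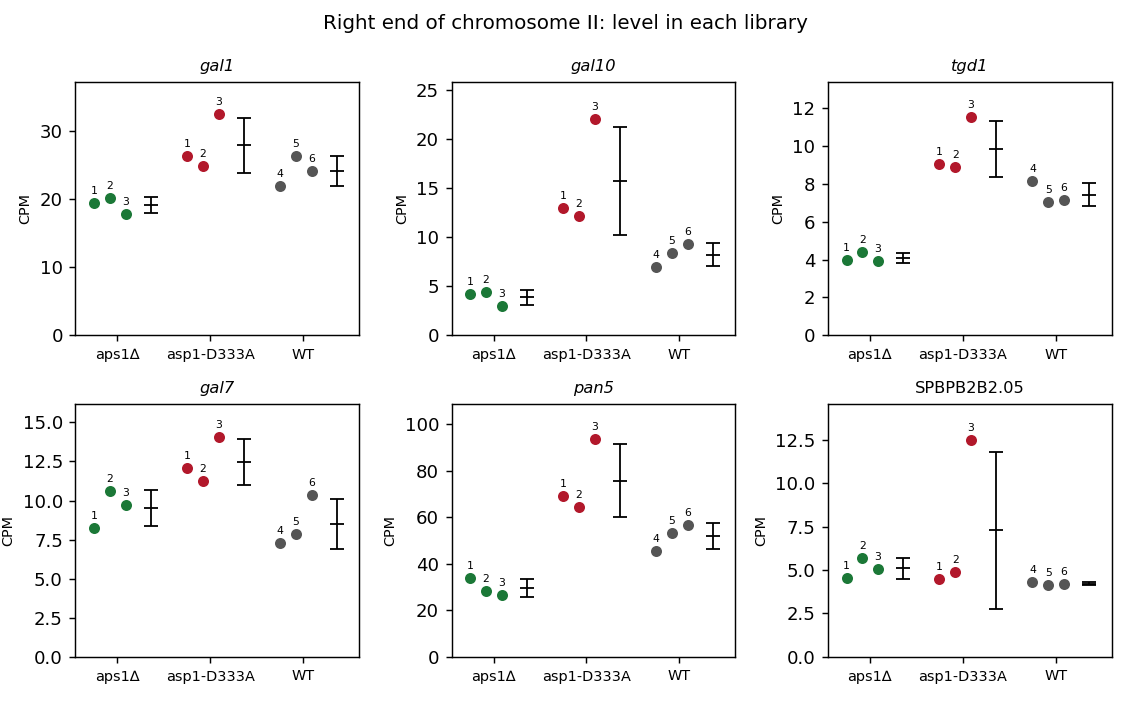
Level in each library, in CPM on axes from 0, of 6 genes of the right end; points carry the replicate number, and the bar beside them is the mean with its SD (n = 3). In gal10, tgd1 and pan5 all aps1∆ points lie below and all asp1-D333A points above the WT points, while in SPBPB2B2.05 asp1-D333A replicate 3, at 12.5 CPM, is alone above the rest.

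The outermost genes of the right end belong to families with copies at other ends. SPBPB2B2.19c, whose sequence is found whole in ftm5 at the left end, had 2.79, 2.50 and 2.49 CPM in aps1∆ and 1.78, 1.61 and 2.37 CPM in asp1-D333A, against 3.63, 2.91 and 3.85 CPM in WT. It fell in asp1-D333A (log2 fold change -0.85, SE 0.21, edgeR adjusted p 0.0036), and in aps1∆ it was at -0.41 (SE 0.21, edgeR adjusted p 0.20). A further copy, ftm4 on chromosome I, had 142, 96 and 118 counts in aps1∆ and 1, 3 and 4 in asp1-D333A, against 7, 2 and 3 in WT. The copies at chromosome II showed no such rise.

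SPBCPT2R1.04c, an uncharacterised gene 99.9% identical to SPAC212.01c over 920 nucleotides, had 142, 84 and 133 counts in aps1∆ and 41, 123 and 106 in asp1-D333A, against 107, 32 and 122 in WT. Each group held a low library, aps1∆ replicate 2, asp1-D333A replicate 1 and WT replicate 5, and the groups overlapped. It was called in neither mutant (log2 fold change 0.46, SE 0.48, in aps1∆ and -0.31, SE 0.49, in asp1-D333A). SPBCPT2R1.01c and SPBPB2B2.18 summed to 22 and 34 counts over the 9 libraries and were not tested. In all, 13 of the 36 genes had a near-identical copy, and 8 of these were tested. Without them the calls were 1 higher and 7 lower of 21 genes in aps1∆, and 9 higher and 3 lower in asp1-D333A. That was 38.1% in aps1∆ and 57.1% in asp1-D333A, beside 16.6% and 61.1% of all features.

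Besides tgd1 and gal10, antisense features listed in the table gave a second reading of these loci. SPNCRNA.1697, opposite gal1, had 307 to 375 counts in aps1∆ and 217 to 435 in asp1-D333A, against 304 to 348 in WT. That was 84.6% to 104% of the counts of gal1 in aps1∆ and 37.5% to 52.8% in asp1-D333A, against 58.9% to 85.3% in WT. Its change was 0.06 (SE 0.16, edgeR adjusted p 0.83) in aps1∆ and -0.40 (SE 0.16, edgeR adjusted p 0.045) in asp1-D333A. SPNCRNA.1302, opposite eno102, had 335 to 370 counts in aps1∆ and 328 to 563 in asp1-D333A, against 221 to 285 in WT. It exceeded eno102 in each of the 9 libraries, at 508% to 844% of its counts in aps1∆ and 276% to 364% in asp1-D333A, against 187% to 291% in WT. It was not called in aps1∆ (0.48, SE 0.17, edgeR adjusted p 0.064) or asp1-D333A (0.35, SE 0.16, edgeR adjusted p 0.083).

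SPNCRNA.1304, which overlaps 15.2% of cmt2, had 0, 2 and 1 counts in aps1∆ and 17, 12 and 24 in asp1-D333A, against 0, 1 and 6 in WT. It rose in asp1-D333A (2.53, SE 0.69, edgeR adjusted p 0.0064), where cmt2 rose, and its counts there were 0.834% to 1.54% of those of cmt2. For the 50 antisense features, which lie wholly within abundant genes, the summed share was 0.702% to 1.40% by library. SPNCRNA.1304 shares only 162 nucleotides with cmt2 and lies mostly outside it, so the shares cannot be compared directly. Whether the reads of SPNCRNA.1304 came from cmt2 was not tested. SPNCRNA.1307, opposite the arylsulfatase gene SPBPB10D8.02c, had 110, 142 and 151 counts in aps1∆ and 62, 77 and 111 in asp1-D333A, against 106, 91 and 88 in WT. It fell in asp1-D333A (-0.54, SE 0.21, edgeR adjusted p 0.040), where SPBPB10D8.02c rose, and was not called in aps1∆ (0.52, SE 0.20, edgeR adjusted p 0.10). A further pair fell in asp1-D333A together with the genes opposite them. SPNCRNA.1305, opposite SPBPB21E7.08, was at -0.61 (SE 0.20, edgeR adjusted p 0.018) and SPNCRNA.1301, opposite grt1, at -0.77 (SE 0.28, edgeR adjusted p 0.029). In aps1∆ they were not called, at -0.14 and -0.51.

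Replicate 3 of asp1-D333A differed from its replicates at many of these genes, a measure chosen once the values were known. In 11 of the 29 genes tested, its CPM was at least 1.5 times the higher of replicates 1 and 2, beside 1.82% of all features. In no other library did more than 3 of the 29 genes pass the same measure. The 11 were SPBC1348.12, grt1, fah1, eno102, SPBPB10D8.01, SPBPB10D8.02c and SPBPB10D8.03 at the left end and gal10, SPBPB2B2.08, SPBPB2B2.05 and say1 at the right end. None of them has a near-identical copy. The ratio was highest for SPBPB10D8.02c at 2.95, SPBPB2B2.05 at 2.55 and SPBPB10D8.03 at 2.48. At the ends of chromosome I, 3 of 22 genes tested passed this measure in asp1-D333A replicate 3, 4 in replicate 2 of that strain and 0 to 3 in each other library. Of the identifiers set aside, SPBPB2B2.06c, next to SPBPB2B2.05, had 35, 35 and 125 counts in asp1-D333A. Several of the 11 lie side by side, as do SPBPB10D8.01, SPBPB10D8.02c and SPBPB10D8.03, while cmt2, aes1, fex2 and SPBPB8B6.05c differed little between the 3 libraries.

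Without this library 10 genes rose and 6 fell in asp1-D333A, in place of 11 and 6. Calls over all features in that fit are not given here, so these counts are not read as particular to these genes. The median log2 fold change of the 29 was 0.08 in place of 0.41, beside -0.01 and 0.01 over all features. Of the 11 genes, 3 were called higher and 1 lower with it, and 3 higher and 2 lower without it. The labels give no batch or date, and what set this library apart was not tested.

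**Figure D4:**
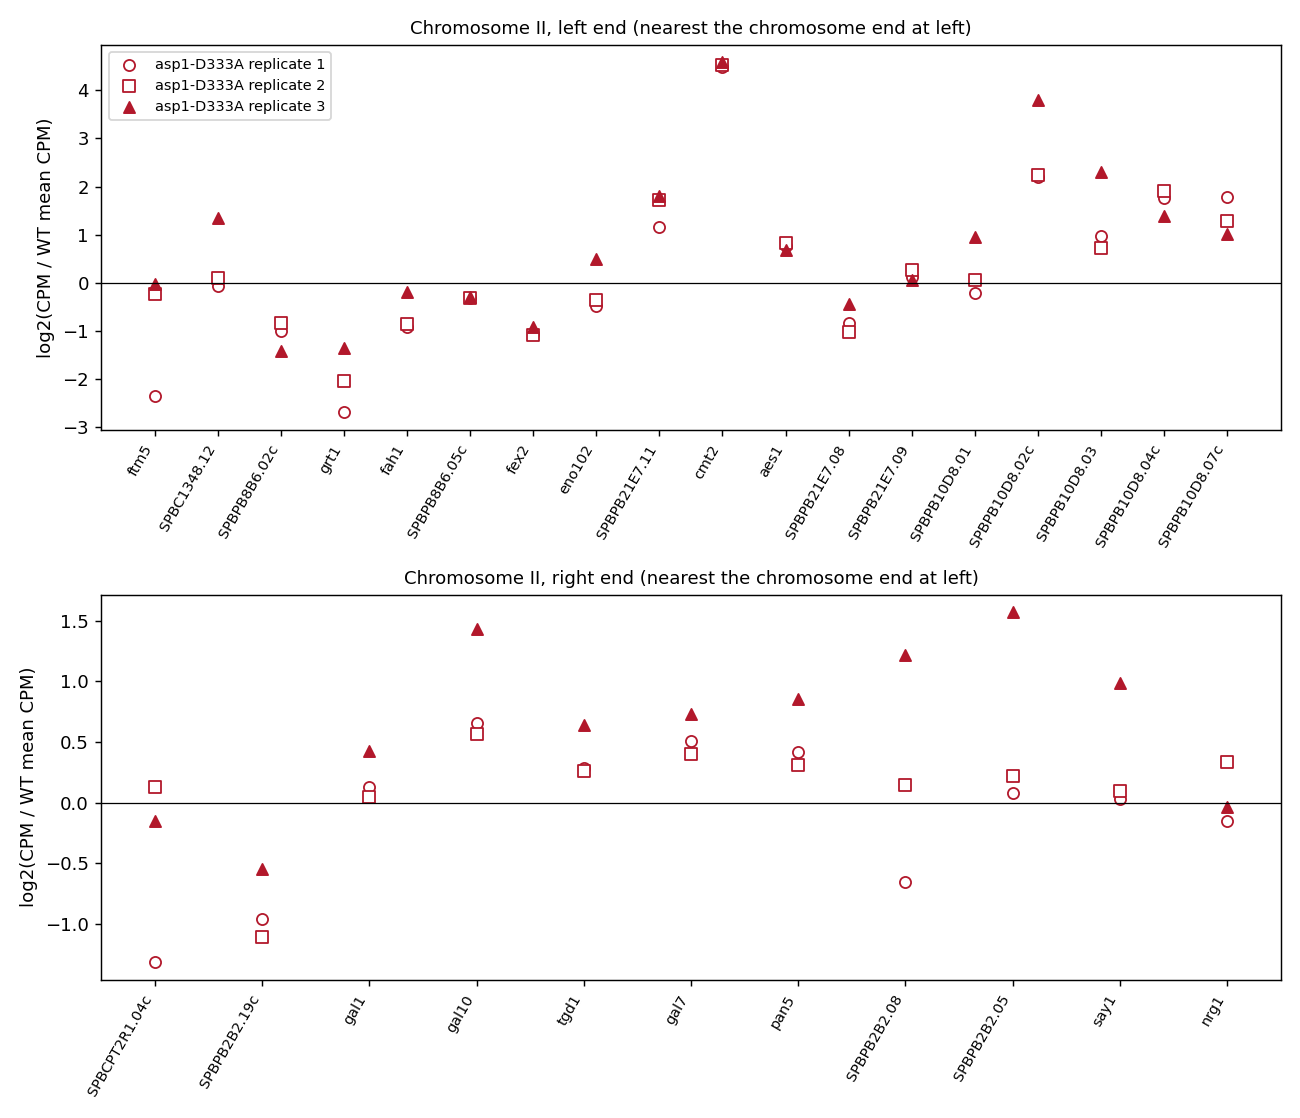
Level of the 29 genes tested in each asp1-D333A library, as log2 of its CPM over the mean CPM of the 3 WT libraries, in annotated order from the chromosome end inward. Filled triangles are replicate 3, which lies above replicates 1 and 2 in SPBC1348.12, SPBPB10D8.01 to SPBPB10D8.03 and SPBPB2B2.08 to say1, and beside them in cmt2, aes1 and fex2.

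For the ends of chromosome I, 32 genes by the same minimum of counts, 22 were tested. There 5 rose and 2 fell in aps1∆, or 31.8% called beside 16.6% of all features, and 5 rose and 5 fell in asp1-D333A, or 45.5% beside 61.1%. The medians were 0.34 in aps1∆ and -0.09 in asp1-D333A. A difference between the chromosomes was not tested.

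Genes known to act on silencing at chromosome ends were taken as a list of 30, all of which were tested. In aps1∆ 3 rose and 1 fell, or 13.3% called beside 16.6% of all features. In asp1-D333A 5 rose and 10 fell, and these 15 of 30 are a share under the 61.1% of all features. The medians were 0.02 in aps1∆ and -0.06 in asp1-D333A. The widest fall in asp1-D333A was that of epe1 (SPCC622.16c), whose product counters heterochromatin, at -0.80 (SE 0.07, edgeR adjusted p 7.3e-07), and it rose in aps1∆ (0.31, SE 0.07, edgeR adjusted p 0.0087). The methyltransferase gene clr4 (SPBC428.08c) had 47.9, 46.1 and 44.3 CPM in aps1∆ and 26.2, 29.7 and 28.4 CPM in asp1-D333A, against 33.5, 34.6 and 35.6 CPM in WT. It rose in aps1∆ (0.42, SE 0.08, edgeR adjusted p 0.0043) and fell in asp1-D333A (-0.30, SE 0.08, edgeR adjusted p 0.0069). The gene stc1 (SPBP8B7.28c), whose product links RNA interference to the Clr4 complex, fell in aps1∆ (-0.51, SE 0.12, edgeR adjusted p 0.015) and rose in asp1-D333A (0.75, SE 0.12, edgeR adjusted p 1.1e-04). The RNA interference genes ago1 and dcr1 fell in asp1-D333A, at -0.65 and -0.67 (SE 0.07 each, edgeR adjusted p 5.5e-06 and 5.9e-06). Those of rdp1 and tas3, of the same process, were not called. Also among the 10 falls in asp1-D333A were clr1 (-0.62), rif1 (-0.52) and clr3 (-0.48). The genes swi6, sgo2 and set2 were called in neither mutant against WT.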

How the data were processed

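The authors deposited 1 table of raw counts, with 1 column for each of the 9 libraries. Per the labels' protocols, RNA was purified with hot acid phenol and poly(A)-selected libraries were made with a stranded kit and sequenced as read pairs. Per the submitters' processing notes, the tools were HISAT2 2.1.0, SAMtools, HTSeq 0.10.0 and DESeq2 with genome build ASM294v2; the strand setting and the treatment of multiply matching reads are not given in the sources used here. The table had 6987 lines for 6986 identifiers; the lines of the repeated one were summed. Names, classes, lengths, order, overlaps and copies came from RefSeq annotation ASM294v3, which matched 6846 identifiers; coordinates and sequences are not printed, as that build differs. Copies were found with blastn 2.17.0 as matches of 100 nucleotides or longer with an identity of at least 95%.

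Counts were fitted in R 4.3.3 with edgeR 4.0.16: filterByExpr with a minimum count of 10, which kept 6147 features, TMM scaling, a model of 3 group means over all 9 libraries with robust quasi-likelihood dispersions, and Benjamini-Hochberg adjustment over all features tested. Values in CPM use the TMM-scaled library size, and the SE was taken as the absolute log2 fold change over the root of F. The common biological coefficient of variation was 0.0917. The procedure was tested on simulated data with an equal dispersion for all features and no library set apart. Changes were simulated only in more abundant features. That test does not cover a library such as asp1-D333A replicate 3, or changes in genes with few counts. Alternatives were RLE, upper-quartile and total-count scaling, no filter, DESeq2 1.42.0, each pair alone, each library left out, genes without copies, and a replicate block. P-values measure the spread between the replicate experiments as labelled, and counts carry counting error as well, which weighs most under about 20 counts.

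The genes, lists and measures were chosen with earlier results of these data known. Any of the 36 genes could be named; values per library were given for those with a symbol that passed the filter and, per clone and contrast with WT, for the called gene of largest change with a mean count of at least 20 in either strain; others were added where a result turned on them.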

Additional observations from a re-analysis of the deposited data

How the results depend on the processing

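The count of genes at the ends of chromosome II called in aps1∆ against WT was 9 with the settings reported, 14 when the 6 libraries of the pair were fitted alone, and between 5 and 14 when 1 library was left out; it was 7 to 9 under the other scalings, without the filter and with DESeq2. In asp1-D333A against WT the count was 17, with 14 to 20 over all alternatives that kept the 29 genes' list, and 12 of 21 among genes without a near-identical copy. The last share was 57.1%, beside 61.1% of all features. Between the mutants the count was 16, with 15 to 18 over the same alternatives and 13 of 21 without copies. The latter is 61.9%, where 68.8% of all features were called. Calls over all features under the alternatives are not given here, so these ranges are not read as particular to these genes. Of the genes called, 5 of 9 in aps1∆, 13 of 17 in asp1-D333A and 14 of 16 between the mutants kept their call in each alternative that could test them. No called change reversed its sign in any of them. With upper-quartile or total-count scaling, which moved the median of all features up in asp1-D333A, SPBPB21E7.09, gal1 and SPBPB2B2.05 were called higher in asp1-D333A as well. Upper-quartile scaling, and not total counts, added SPBC1348.12 (0.78, edgeR adjusted p 0.04) and say1 (0.61, edgeR adjusted p 0.035). The replicate numbers 1 to 3 are shared by the mutants and not by WT. Deviations of same-numbered libraries correlated at 0.146, 0.061 and -0.131, so the samples share a number and no pairing was shown; with the replicate block, 17 genes were called between the mutants. Depth limits the 7 genes not tested and those with fewer than about 20 counts per library, and reads of the 13 genes with copies cannot be placed with certainty.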

Other observations

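Of the 15 identifiers on the 6 clones with 1 to 19 counts over the 9 libraries, SPBPB21E7.10 had no count in aps1∆ and 2, 1 and 4 in asp1-D333A, against 0, 0 and 1 in WT; it overlaps SPBPB21E7.11 on the opposite strand. SPBC1348.05 had 0, 3 and 0 counts in aps1∆ and 1, 2 and 6 in asp1-D333A, against 3, 0 and 2 in WT. These levels are too low for a comparison.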
